A study of Mus musculus with 42 samples.

Results

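The Hoxa cluster is a row of 11 homeobox genes on mouse chromosome 6, all transcribed from the same strand. Binding of SOX2, β-catenin and LEF1 along it was measured by ChIP–seq, sequencing of the DNA that an antibody brings down, in mouse epiblast-like cells. The window spanned the cluster with 10 kb added on either side (mm10, chr6:52145590-52270880), which made 125 kb. Peaks were taken from the 20000 best of each deposited list, and peaks of all lists that overlapped were joined into regions. This gave 97 regions in the Hoxa window of 336178 in the genome, of which 71 came from SOX2, 48 from β-catenin and 29 from LEF1 when each factor was joined on its own.

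The cells were HM1 TetON embryonic stem cells or mutant lines derived from them, differentiated in bFGF and LGK974, which blocks WNT secretion, and fixed at 72 h. CHIR99021, which switches on WNT signalling inside the cell, was added for the last day (CHIR) or left out (noCHIR). The genotypes were WT, the unmutated line, CdxKO, in which the genes Cdx1, Cdx2 and Cdx4 were disrupted, and T/BraKO, in which T was, each profiled with CHIR for all 3 factors, and WT noCHIR for SOX2 alone, which made 10 groups of 3 libraries and 30 peak lists. Each genotype was carried by its own cell line, so line and genotype cannot be told apart, and peak lists show neither expression nor the deletions, so cell identity and the mutations were not checked here.

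Hox genes encode homeodomain transcription factors that give cells their position along the body axis, and they are switched on one after the other along a cluster. In the caudal epiblast, the source of the trunk, WNT signalling promotes this through β-catenin, which does not bind DNA itself and is brought to it by partners such as LEF1. CDX proteins are homeodomain factors known as regulators of Hox genes of the trunk, T/BRA is the T-box factor of the primitive streak, and SOX2 is a factor of pluripotent and neural cells.

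Replicates of a group shared few of their best peaks, and this limits how firmly single values can be read. The Jaccard index, the number of regions called in both of 2 libraries divided by the number called in either, was 0.186 to 0.322 for β-catenin pairs and 0.0215 to 0.0417 for LEF1 pairs. For SOX2 it was 0.335 to 0.435 in WT noCHIR and 0.0622 to 0.103 in WT CHIR, where replicates agreed least. List lengths ran from 26940 to 1008922 peaks, which is why equal numbers of best peaks were compared. No read totals were used, so depth is unknown and no interval is given for a single peak.

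Sequences of the sites on which the results turn are given first, so that the letters can be read beside the values. Each is the 201 bases centred on a summit, from GRCm38.p6, plus strand, and capitals mark matches to a short motif on either strand. For CDX the letters CAATAAA were searched, along with the variants CCATAAA and also TAATAAA and also TCATAAA. The T-box letters were AGGTGTGA, the SOX letters were CCATTGT or otherwise CCTTTGT, and the TCF/LEF letters were CTTTGAA or otherwise CTTTGAT. The first pair holds β-catenin summits that were listed in WT and not, or hardly, in CdxKO: one within the intron of Hoxa4 (chr6:52190859-52191059) and one 12.2 kb upstream of Hoxa2 within the intron of Hoxa3 (chr6:52176963-52177163). The last pair is the LEF1 site below the 3′ end of Hoxa5 (chr6:52199575-52199775) and the SOX2 site 8.04 kb upstream of Hoxa2 (chr6:52172772-52172972), both within the long Hoxa3 transcript.
Hoxa4 intron site, β-catenin summit: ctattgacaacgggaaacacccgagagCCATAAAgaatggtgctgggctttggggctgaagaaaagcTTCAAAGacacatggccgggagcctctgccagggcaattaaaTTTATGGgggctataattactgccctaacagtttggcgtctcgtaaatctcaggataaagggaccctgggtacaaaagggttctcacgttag
Hoxa2 upstream site, β-catenin summit: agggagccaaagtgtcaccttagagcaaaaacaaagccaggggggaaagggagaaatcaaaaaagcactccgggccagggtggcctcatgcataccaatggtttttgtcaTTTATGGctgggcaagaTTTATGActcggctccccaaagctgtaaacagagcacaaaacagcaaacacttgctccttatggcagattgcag
Hoxa5 3′ site, LEF1 summit: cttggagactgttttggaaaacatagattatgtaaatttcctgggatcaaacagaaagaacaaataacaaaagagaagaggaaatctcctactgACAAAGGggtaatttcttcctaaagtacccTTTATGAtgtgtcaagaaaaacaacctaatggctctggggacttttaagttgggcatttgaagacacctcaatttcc
Hoxa2 upstream site, SOX2 summit: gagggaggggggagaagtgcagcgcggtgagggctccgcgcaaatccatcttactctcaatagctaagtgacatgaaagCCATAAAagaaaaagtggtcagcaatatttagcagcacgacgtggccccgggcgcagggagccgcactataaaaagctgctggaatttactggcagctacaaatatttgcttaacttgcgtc

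The Hoxa window held 325 peaks over the 30 libraries. The middle genes Hoxa5 to Hoxa7 had 49 of them (15.1%) and the posterior genes Hoxa9 to Hoxa13 had 76 (23.4%). The stretch of window nearest to a gene's start differs in length between genes. No total by gene or part of the cluster was adjusted for it, so the totals do not rank genes by peak density. Of 325 summits, 71 (21.8%) lay within 1 kb of a gene start, and the median distance was 3.58 kb. The share of the window within 1 kb of a start was not computed, so no excess or lack at starts can be read from this. A peak was given to the gene with the nearest start, and by this rule Hoxa2, which patterns the hindbrain and the second pharyngeal arch, had 85 peaks. Hoxa3, a gene of the pharyngeal organs, had 3, because the start of its long coding transcript lies between Hoxa6 and Hoxa7. With the nearest coding exon as the rule, chosen after the data were seen, Hoxa3 had 67 peaks and Hoxa2 had 28.

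Hoxa4, a gene of the neck vertebrae, had 40 peaks by nearest start, and Hoxa5, which shapes the neck-to-thorax transition and the lung, had 28. Hoxa10, a gene of the lumbar spine and uterus, also had 28. Hoxa7, a thoracic gene, and Hoxa11, a gene of kidney and forearm, had 18 each, Hoxa13, which acts in digits and the hindgut end, had 17, and Hoxa9, a gene of the lower trunk and of blood progenitors, had 13. Hoxa6, another thoracic gene, had 3. By nearest coding exon Hoxa7 had 7, Hoxa9 had 21 and Hoxa6 had 7. Called in at least 2 libraries were 26 of 71 Hoxa SOX2 regions, beside 30109 of 122617 in the genome. For β-catenin these were 17 of 48, beside 22494 of 96109, and for LEF1 6 of 29, beside 8075 of 162760. With all factors joined, 53 of the 97 Hoxa regions were called in 1 library only and 8 in at least 10. The genome shares for these joined counts were not computed. Among the 8 were the Hoxa4 intron site and a site 3.92 kb upstream of Hoxa2, each called in 17 libraries, and the sites near Hoxa5, in 13, and upstream of Hoxa7, in 11.

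**Figure D1:**
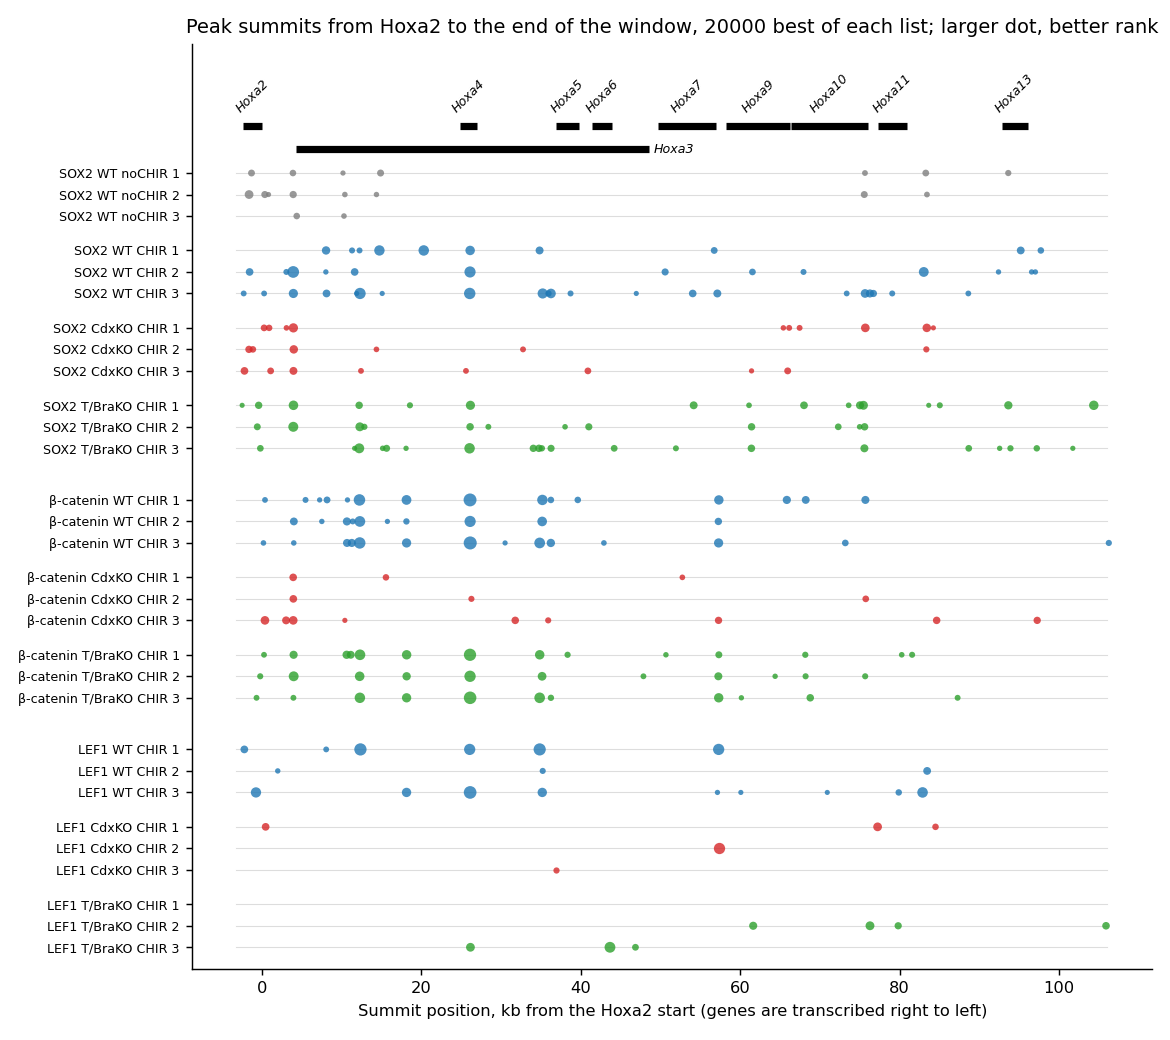
Summits of the best peaks from Hoxa2 to the Hoxa13 end of the window, 1 line per library and 1 dot per peak, with distance in kb from the Hoxa2 start on the x axis, the Hoxa genes as black bars and larger dots for better ranks. Columns of dots mark the recurrent sites. Some β-catenin columns over the Hoxa3 transcript are filled in WT and T/BraKO and nearly empty in CdxKO. These lie 12.2 kb upstream of Hoxa2, 8.79 kb downstream of the Hoxa4 start, and at the Hoxa4 intron and Hoxa5 3′ sites. Other columns there differ. The one 10.6 kb upstream of Hoxa2 is filled in CdxKO replicate 3 and in T/BraKO replicate 1, but not in T/BraKO replicates 2 and 3.

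The number of β-catenin peaks in the Hoxa window was lowest in CdxKO. The WT libraries had 18, 13 and 17 peaks, the CdxKO libraries 7, 8 and 12, and the T/BraKO libraries 18, 14 and 14. No CdxKO library reached the lowest WT or T/BraKO library, while WT and T/BraKO overlapped. The means were 16 ± 2.65 in WT, 9 ± 2.65 in CdxKO and 15.3 ± 2.31 in T/BraKO (SD, n = 3 each).

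CdxKO minus the mean of WT and T/BraKO was -6.67 β-catenin peaks (exact permutation test over 84 assignments, two-sided, p = 0.0119, the smallest it can give). Adjusted over the 6 tests of 1 mutant against the other genotypes, this p was 0.0714 and missed the threshold of 0.05. WT against CdxKO alone differed by 7 peaks (exact permutation test, p = 0.1, the smallest that 3 against 3 can give, adjusted p = 0.35 over 7 comparisons). WT against T/BraKO differed by 0.667 peaks (exact permutation test, p = 1, adjusted p = 1). The same WT libraries serve in every comparison with WT CHIR.

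Single β-catenin regions were also compared by rank. Of 15 Hoxa regions called in at least 2 of the 6 WT and CdxKO libraries, 6 (40.0%) had every WT rank better than every CdxKO rank, a library without the region among its best peaks being set last, beside 6.14% of 15935 such regions in the genome. None of the 15 was ranked better in CdxKO, where the genome had 5.42%. Not every recurrent site was lower in CdxKO. At the site 3.92 kb upstream of Hoxa2 the β-catenin ranks overlapped. They were 7303, 7164 and 4369 in CdxKO and 6486 and 17287 in WT replicates 2 and 3, and WT replicate 1 listed no peak. All 6 regions ranked better in WT lay between the starts of Hoxa2 and Hoxa9, and 5 of them were within the long transcript of Hoxa3. One of the 6, a region 10.6 kb upstream of Hoxa2, was called by a narrow margin. Its WT ranks were 18626, 5595 and 5952, and CdxKO replicate 3 had it at rank 19317, close to the limit of 20000.

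The Hoxa4 intron site, 0.794 kb inside the gene, showed the widest gap. Its ranks in WT, where 1 is the best peak of a library, were 239, 885 and 211, with fold enrichments over local background of 47.9, 27.8 and 77.0. In CdxKO replicate 2 it stood at rank 13900 with a fold enrichment of 5.93, and the full lists of CdxKO replicates 1 and 3 held no peak there. T/BraKO ranks were 402, 800 and 318, with fold enrichments of 49.5, 27.1 and 48.3, and overlapped those of WT.

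The site 12.2 kb upstream of Hoxa2 followed the same order. It was at ranks 701, 1200 and 739 in WT and 1288, 2544 and 1447 in T/BraKO, so that every WT rank was better than every T/BraKO rank. In CdxKO it was absent from the full lists of replicates 1 and 2 and at rank 47889 in replicate 3. This was the only one of 16 regions (6.25%) ranked better in WT than in T/BraKO, beside 6.20% of 18055 regions in the genome, and none was ranked better in T/BraKO, where the genome had 9.30%. The Hoxa share for T/BraKO was close to that of the genome.

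The site below the 3′ end of Hoxa5, 4.91 kb from its start, had WT ranks of 1490, 2429 and 1208 and T/BraKO ranks of 2700, 4087 and 1307, which overlapped. In CdxKO only replicate 1 listed it, at rank 26747. The site 8.79 kb downstream of the Hoxa4 start had WT ranks of 2244, 12672 and 3092 and T/BraKO ranks of 2770, 5027 and 2991, and no CdxKO list held it. The site 3.44 kb upstream of Hoxa7 was the weakest of the 5 named for this comparison: it stood at ranks 2823, 8151 and 3144 in WT and was among the best peaks of 1 CdxKO library, at rank 8362, just behind the last WT library.

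**Figure D2:**
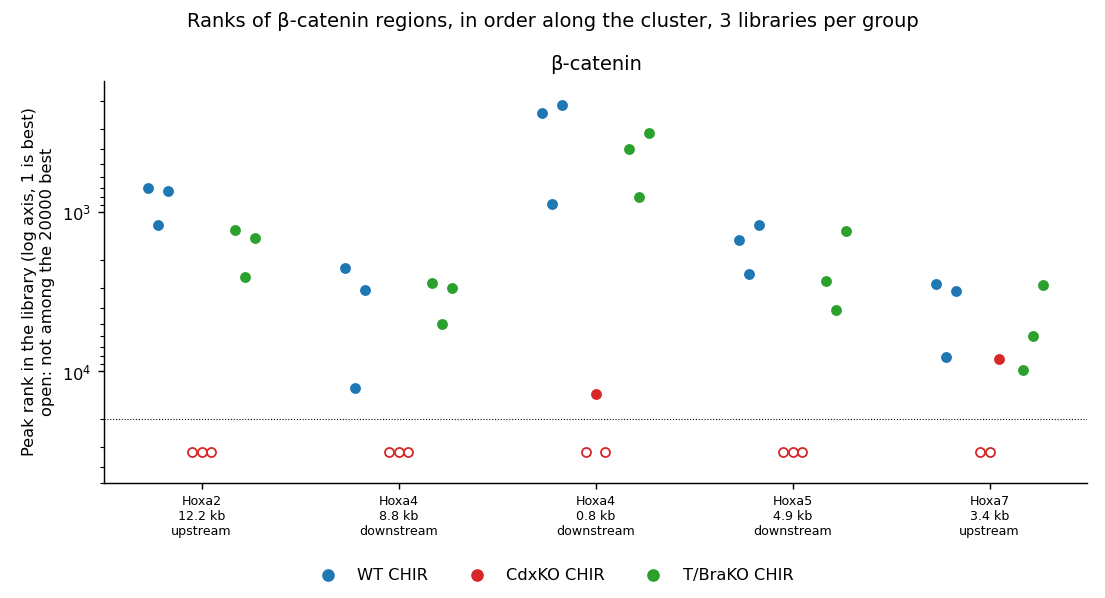
Rank of 5 β-catenin regions in each of the 9 β-catenin libraries (y axis, log scale, best rank at the top), ordered along the cluster and labelled by nearest gene and distance from its start; open circles under the dotted line are libraries without the region among their 20000 best peaks. Of the 15 CdxKO circles 13 are open, and all WT and T/BraKO circles are filled.

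The 5 named β-catenin regions that ranked better in WT than in CdxKO each held a CDX motif within 100 bp of the summit. At the Hoxa4 site one CDX match was 70 bp and another 12 bp from the summit, with a TCF/LEF match 30 bp from it. At the site 12.2 kb upstream of Hoxa2 the CDX matches were 13 and 30 bp away, and no TCF/LEF match was found.

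Over all Hoxa β-catenin regions called in at least 2 libraries, 6 of 17 (35.3%) held a CDX motif, beside 12.6% of 22494 regions in the genome. Over those called in at least 1 library the shares were closer, 8 of 48 (16.7%) beside 13.3% of 96109. A TCF/LEF motif was in 5 of 17 (29.4%), beside 36.9%, and a SOX motif in 4 of 17 (23.5%), beside 14.0%. The T-box motif was in none of the 17, and in 1.75% of the genome's regions. Counted over the WT and CdxKO comparison, 5 of the 6 regions better in WT and 1 of the 9 with overlapping ranks held a CDX motif. Genome shares for these counts were not computed. A match of letters is a description and shows neither a bound site nor a cause.

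SOX2 peaks in the Hoxa window were fewest without CHIR. The WT noCHIR libraries had 7, 10 and 5 peaks, and the WT CHIR libraries had 11, 15 and 23. The groups did not overlap, and the means were 7.33 ± 2.52 and 16.3 ± 6.11 (SD, n = 3 each). The difference of 9 peaks had p = 0.1 in the exact permutation test, the smallest possible, and an adjusted p of 0.35. Without WT CHIR replicate 3, the library with the most peaks, it was 5.67. With CHIR, CdxKO had 11, 9 and 12 peaks and T/BraKO had 20, 14 and 22, and both ranges overlapped that of WT.

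CdxKO minus the mean of WT and T/BraKO was -6.83 SOX2 peaks (exact permutation test, p = 0.0595, adjusted p = 0.179). WT CHIR exceeded CdxKO by 5.67 peaks (exact permutation test, p = 0.3, adjusted p = 0.42), and by 2.33 without WT CHIR replicate 3. WT CHIR minus T/BraKO was -2.33 peaks (exact permutation test, p = 0.8, adjusted p = 0.933), and this sign turned with the full lists, where WT had 32 more.

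**Figure D3:**
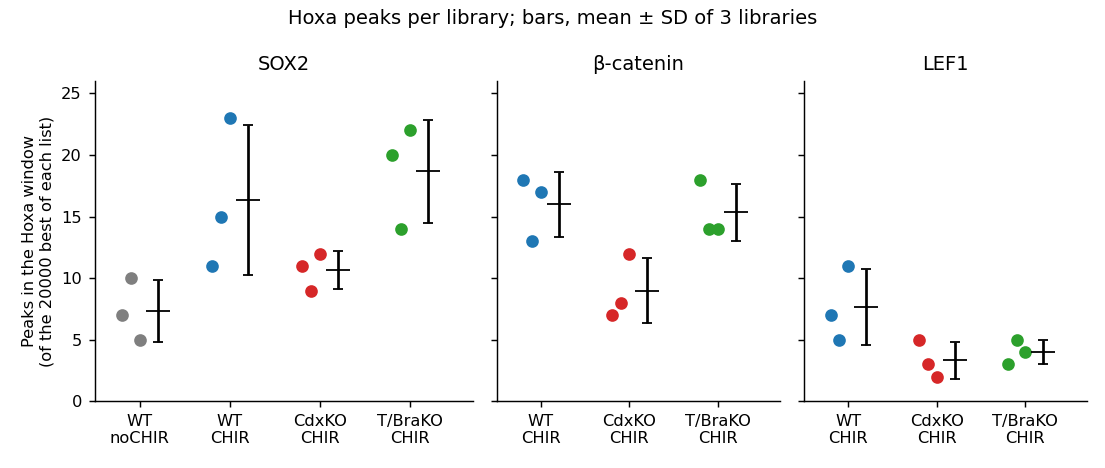
Number of peaks in the Hoxa window among the 20000 best of each library (y axis) by group and factor; dots are libraries and bars are the mean ± SD of 3 libraries. The 3 CdxKO β-catenin libraries lie at 7 to 12, under the 13 to 18 of WT, and the 3 SOX2 libraries without CHIR lie at 5 to 10, under the 11 to 23 of WT with CHIR.

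Of 13 SOX2 regions, 3 (23.1%) had every WT CHIR rank better than every noCHIR rank, beside 3.20% of 19037 regions in the genome. The genome leaned the other way, with 22.7% of regions better in noCHIR, against 1 of 13 in the Hoxa window. Such a call needs all 3 ranks of a group, so it depends on how well replicates agree. In the genome 1979 regions were called in all 3 WT CHIR libraries and 8293 in all 3 noCHIR libraries. How much of the lean this accounts for was not tested. Among the 3 Hoxa regions better with CHIR were the Hoxa4 intron site and the site 8.04 kb upstream of Hoxa2.

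The Hoxa4 intron site was absent from all 3 full noCHIR lists. With CHIR it was at ranks 2700, 897 and 760 in WT, with fold enrichments of 12.8, 13.3 and 23.9. In CdxKO replicates 1 and 2 listed no peak there and replicate 3 had it at rank 15604, and in T/BraKO the ranks were 3240, 7682 and 1438. Its SOX2 summit lay 62 bp from the β-catenin summit and 51 bp from that of LEF1, so the sequence given for β-catenin covers all of them.

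The site 8.04 kb upstream of Hoxa2 was among the best SOX2 peaks in WT CHIR only, at ranks 4981, 18225 and 6703. None of the noCHIR lists held it, CdxKO replicate 3 listed it at rank 71118 and T/BraKO replicate 1 at rank 24306. WT CHIR replicate 2 was close to the limit of 20000, with a fold enrichment of 6.91. T/BraKO replicate 1 was not far past that limit, with a fold enrichment of 6.4. The opposite case was a site 10.3 kb upstream of Hoxa2, within the best peaks in all 3 noCHIR libraries (ranks 19032, 16988 and 16933) and in none with CHIR. Its noCHIR ranks were all close to the limit of 20000, and WT CHIR replicate 1 was just past it, at 21825.

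Between genotypes, 2 of 16 SOX2 regions (12.5%) ranked better in WT than in CdxKO, the Hoxa4 intron site and the site 8.04 kb upstream of Hoxa2, beside 1.40% of 15750 in the genome. None ranked better in CdxKO, where the genome had 10.3%. Against T/BraKO, 1 of 18 (5.56%) ranked better in WT, the site 8.04 kb upstream of Hoxa2, beside 0.974% of 15099, and none the other way, where the genome had 8.27%. With so few regions, 1 region more or fewer moves these Hoxa shares by over 5 percentage points. In the genome 1979 regions were called in all WT CHIR libraries, 5765 in all CdxKO libraries and 5137 in all T/BraKO libraries. How this bears on the genome shares was not tested.

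Other SOX2 sites of the cluster did not separate the groups. The region 3.92 kb upstream of Hoxa2, over an exon of the antisense transcript Hoxaas2, was called in 9 of 12 libraries in all 4 groups, with its best rank of 601 in WT CHIR replicate 2. The region 12.3 kb upstream of Hoxa2, 72 bp from the β-catenin summit there, was at ranks 14857, 175093 and 837 in WT CHIR, 7912, 3711 and 2052 in T/BraKO, and within the best peaks of 1 CdxKO library. The region in the Hoxa10 untranslated exon was called in 7 of 12 libraries, 3 of them T/BraKO. SOX motifs were in 7 of the 26 Hoxa SOX2 regions called in at least 2 libraries (26.9%), beside 28.3% of 30109 in the genome, and CDX motifs in 6 (23.1%), beside 10.9%.

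LEF1 gave the fewest peaks. WT had 7, 5 and 11, CdxKO had 5, 3 and 2, and T/BraKO had 3, 5 and 4, so that each mutant overlapped WT at 5. WT exceeded CdxKO by 4.33 peaks and T/BraKO by 3.67 (exact permutation tests, p = 0.2 each, adjusted p = 0.35 each). Without WT replicate 3, the library with the most LEF1 peaks, these were 2.67 and 2. With the full lists both differences changed sign, to -2.67 and -3.33 peaks.

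Only 6 Hoxa regions were called in at least 2 LEF1 libraries, so the counts for LEF1 rest on few regions. One of 5 (20.0%) ranked better in WT than in CdxKO and one of 6 (16.7%) better in WT than in T/BraKO, beside 1.76% of 5173 and 3.98% of 4475 in the genome. None ranked better in a mutant, where the genome had 4.25% for CdxKO and 1.56% for T/BraKO. The region was the same in both cases, the Hoxa5 3′ site, whose LEF1 summit was 1 bp from that of β-catenin. Its WT ranks were 433, 13942 and 2874, and no mutant library had it among its best peaks; the best mutant rank was 62445.

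At the Hoxa4 intron site LEF1 was at ranks 857 and 288 in WT replicates 1 and 3 and at 488264 in replicate 2, and in no CdxKO list. In T/BraKO it was at ranks 307349, 27566 and 4021, of which the last, in replicate 3, was among the best peaks. At the site 3.42 kb upstream of Hoxa7 it stood at rank 842 in WT replicate 1 and 824 in CdxKO replicate 2. Of the 6 LEF1 regions, 5 held a TCF/LEF motif (83.3%), beside 46.5% of 8075 in the genome, and 4 a CDX motif (66.7%), beside 10.5%. The region without a TCF/LEF match was the Hoxa5 3′ site, which held a CDX match and a SOX match.

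**Figure D4:**
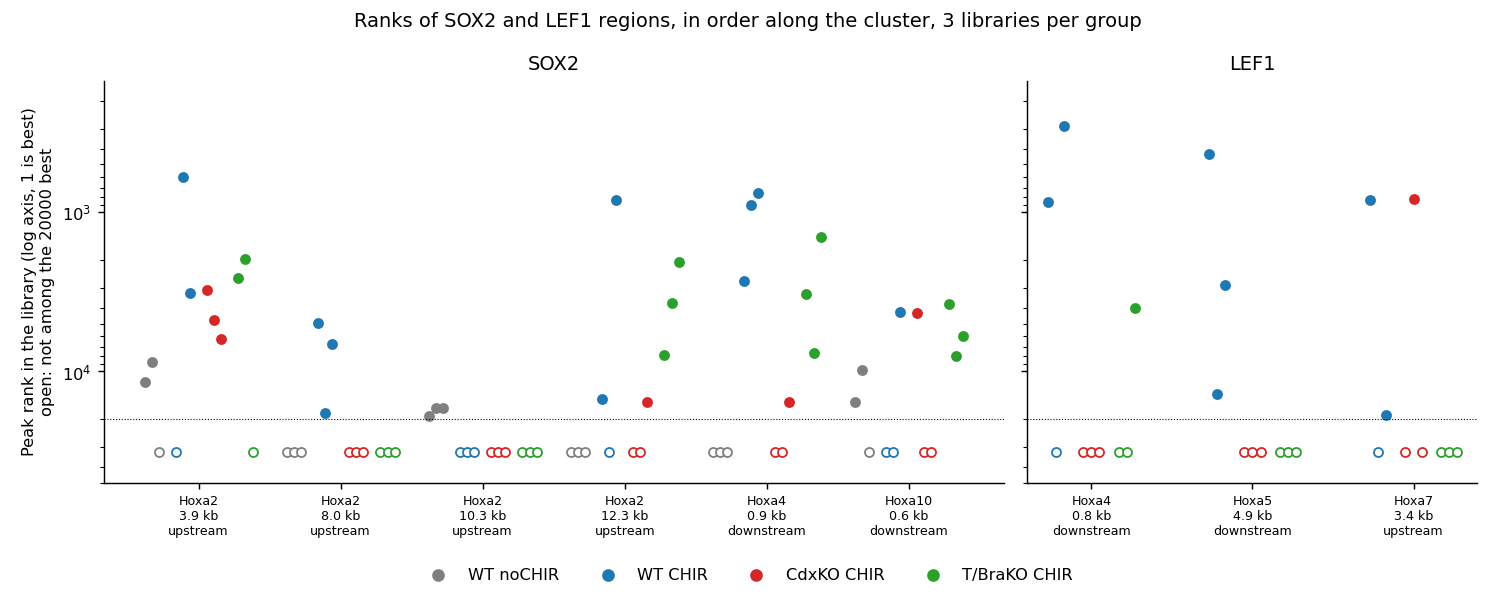
Rank of the named SOX2 regions in 12 libraries and of the named LEF1 regions in 9 libraries (y axis, log scale, best rank at the top), ordered along the cluster; open circles under the dotted line are libraries without the region among their 20000 best peaks. At the Hoxa4 region the 3 noCHIR and 2 of 3 CdxKO circles of SOX2 are open, and at the Hoxa5 region LEF1 circles are filled in WT only.

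Of the 97 sites of the cluster, 63 were called for 1 factor, 22 for a pair of factors and 12 for all 3, over all groups. The genome shares for these counts were not computed, so they show nothing particular to the cluster. Regions that 2 or 3 replicates had in common were set against each other within each group, an overlap of more than 10% of the shorter region counting as shared. In WT CHIR, 7 of 12 Hoxa β-catenin regions overlapped a SOX2 region (58.3%), beside 28.0% in the genome, and 4 of 12 a LEF1 region (33.3%), beside 15.1%. In CdxKO 3 β-catenin regions were left, of which 2 overlapped SOX2 (genome 40.8%) and 1 LEF1 (genome 20.2%). In T/BraKO 4 of 10 overlapped SOX2 (40.0%), beside 39.0%, and 1 of 10 LEF1 (10.0%), beside 10.2%. These shares rest on 3 to 12 regions.

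By position along the cluster, neither the middle nor the posterior genes had more β-catenin peaks on average in CdxKO than in WT. In WT the middle genes had 4, 2 and 4 β-catenin peaks and in CdxKO 1, 0 and 2, with 4, 2 and 3 in T/BraKO. Posterior genes had 3, 0 and 2 in WT, 0, 1 and 2 in CdxKO and 3 in each T/BraKO library. Hoxa2 had 6, 5 and 5 in WT, 1, 1 and 4 in CdxKO and 5, 3 and 3 in T/BraKO by nearest start, which gives it peaks inside the Hoxa3 transcript. By nearest coding exon Hoxa2 had 1, 0 and 1 in WT, 0, 0 and 1 in CdxKO and 1 in each T/BraKO library. No test was run on single genes.

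For SOX2 the middle genes had no peak in any of the 3 WT noCHIR libraries and 2, 1 and 6 with CHIR. In CdxKO they had 0, 0 and 1, and in T/BraKO 1, 2 and 6. Posterior genes had 3, 2 and 0 in noCHIR and 2, 6 and 6 with CHIR in WT, 6, 1 and 2 in CdxKO and 9, 4 and 7 in T/BraKO, so that the groups with CHIR overlapped.

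Peak density in the Hoxa window was set beside that of the other Hox clusters. A list of 20000 peaks spread evenly would give 0.734 peaks per 100 kb of genome. Over 12 SOX2 libraries the Hoxa window had 10.6 ± 4.62 peaks per 100 kb, over 9 β-catenin libraries 10.7 ± 3.20 and over 9 LEF1 libraries 3.99 ± 2.15 (mean ± SD). Hoxb had 14.7 ± 3.88 for β-catenin, above Hoxa in 8 of 9 libraries (exact sign-flip permutation test, Hoxa minus Hoxb -3.94, p = 0.00781, adjusted p = 0.0703 over 9 tests). Hoxc had 7.67 ± 2.62 for SOX2, below Hoxa in 9 of 12 libraries (exact sign-flip permutation test, difference 2.90, p = 0.0215, adjusted p = 0.0967). None of the 9 tests passed 0.05 after adjustment, and 2 did at an unadjusted p (exact sign-flip permutation tests).

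**Figure D5:**
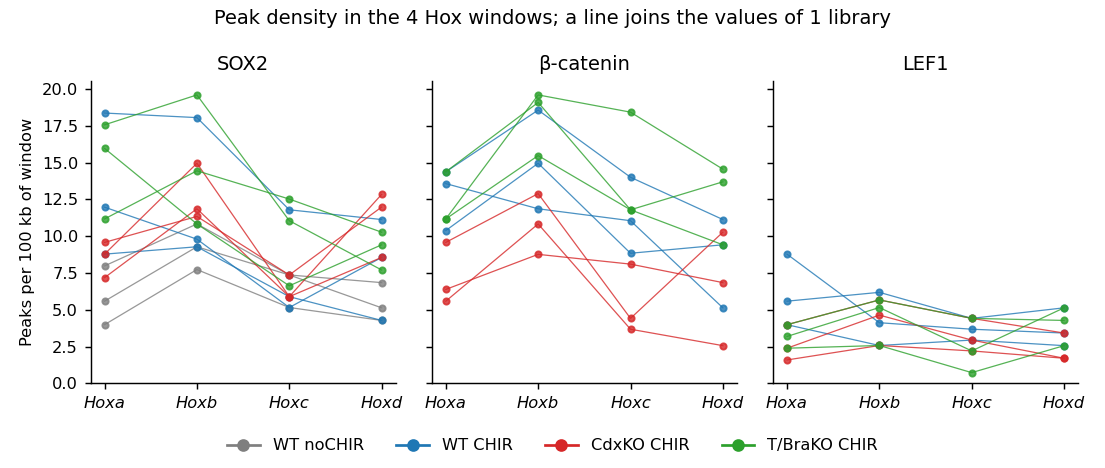
Peaks per 100 kb (y axis) in the windows of the Hoxa, Hoxb, Hoxc and Hoxd clusters for each library, a line joining the values of 1 library and colour giving the group. Hoxb lies above Hoxa in 8 of the 9 β-catenin libraries, and the LEF1 means are the lowest of the 3 factors in every cluster.

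Regions of this kind were found in the other clusters as well. For β-catenin, every WT rank was better than every CdxKO rank in 8 of 25 Hoxb regions (32.0%), 4 of 13 Hoxc regions (30.8%) and 1 of 7 Hoxd regions (14.3%), beside the 6 of 15 in Hoxa. For SOX2 with and without CHIR the shares better with CHIR were 5 of 27 in Hoxb (18.5%), 2 of 14 in Hoxc (14.3%) and 0 of 9 in Hoxd, beside the 3 of 13 in Hoxa. The differences between clusters were not tested.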

How the data were processed

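SOX2, β-catenin and LEF1 ChIP–seq was analysed in 30 libraries of 42 samples. The 12 inputs were not analysed here. Reads had been aligned to mm10 with BWA in the nf-core chipseq pipeline, and the authors called narrow peaks for each library with MACS2. Which input served which library is not given in the sources used here. In each deposited list, the ratio column gives fold enrichment at the summit. The deposited −log10 p-value and −log10 q-value belong to the same summit. Neither depth nor read counts were used.

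Ranks followed −log10 q, with ties settled by −log10 p, fold enrichment and position, and the 20000 best were kept. Regions were overlaps of at least 1 bp within a factor. Annotation was GENCODE M21 on GRCm38.p6. A peak belonged to the nearest coding transcript start of the Hoxa genes. Named regions were, per factor, the 5 with the best mean log10 rank and, per comparison and direction, up to 5 with non-overlapping ranks. Window totals cover all 11 genes, of which 1, with its regions, is not reported here. The members, lists and tests were chosen with earlier results of these data known. Scripts used Python 3.11.15, numpy 2.4.6, pandas 2.3.3 and samtools 1.23.1, and the rank comparison was tested on simulated data. Exact permutation tests, two-sided and with Benjamini-Hochberg adjustment, compared peak numbers and densities. Alternatives were other list lengths, rankings, windows and overlaps, and leaving out each library.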

Additional observations from a re-analysis of the deposited data

How the results depend on the processing

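Replicate lists shared few peaks, read depth is unknown, and 3 libraries against 3 cannot give a p below 0.1, so a difference that missed the threshold may still exist. Of 168 alternatives for peak numbers 155 kept their direction and 13 reversed. With the full lists, WT minus T/BraKO was 32 for SOX2 and -3.33 for LEF1, WT minus CdxKO was -2.67 for LEF1, T/BraKO minus the other genotypes was -17.3 for SOX2 and 2 for LEF1, CdxKO minus the others was 1 for LEF1, and SOX2 density in Hoxa minus Hoxb was 1.17. SOX2 WT minus T/BraKO was 1 with the 5000 best peaks and 4 at a −log10 q of at least 10, where T/BraKO minus the other genotypes was -0.5. Leaving out 1 library gave -5.67 to 0.333 for this SOX2 difference (above 0 without WT CHIR replicate 1) and -0.333 to 2.17 for β-catenin WT minus T/BraKO (below 0 without WT CHIR replicate 1). For SOX2 it gave 5.67 to 11.7 for WT with minus without CHIR and 2.33 to 8.33 for WT minus CdxKO, and for LEF1 2.67 to 5.67 for WT minus CdxKO and 2 to 5 for WT minus T/BraKO, each lowest without WT CHIR replicate 3. The cause was not tested.

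With the 5000 best peaks the β-catenin density in Hoxa minus Hoxb was -1.96 and in Hoxa minus Hoxd 2.65 (exact sign-flip permutation tests, adjusted p = 0.0176 each). Without the 10 kb extension Hoxa minus Hoxc was -0.736 and Hoxa minus Hoxd -0.408 for β-catenin, and Hoxa minus Hoxd was -0.515 for LEF1. Leaving out 1 library, SOX2 density in Hoxa minus Hoxb ran from -2.38 (without T/BraKO replicate 1, adjusted p = 0.0483, exact permutation test) to -1.36, Hoxa minus Hoxc from 2.32 to 3.33 (the latter without WT noCHIR replicate 1, adjusted p = 0.0483, exact permutation test), and β-catenin Hoxa minus Hoxc from -0.083 (without CdxKO replicate 3) to 1.47.

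Counts of regions moved by over 1.5 times in 24 of 126 alternatives, all from small counts. Ranked by fold enrichment, 0 β-catenin regions were better in WT than in T/BraKO. Leaving out 1 library, SOX2 gave 3 to 5 regions better with than without CHIR, 1 to 2 the other way, 2 to 4 better in WT than in CdxKO, 0 to 1 the other way, 1 to 2 better in WT than in T/BraKO and 0 to 2 the other way. β-catenin gave 6 to 7 better in WT than in CdxKO, 0 to 1 the other way, 1 to 3 better in WT than in T/BraKO and 0 to 2 the other way. LEF1 gave 1 to 2 better in WT than in CdxKO, 0 to 1 the other way and 1 to 3 better in WT than in T/BraKO. Giving peaks to the nearest coding exon, chosen after seeing the data, moved 5 of 11 gene totals by over 1.5 times, those of Hoxa2, Hoxa3, Hoxa6, Hoxa7 and Hoxa9.

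Correlations of same-numbered libraries ran from -0.209 to 0.183, and in 0 of 7 comparisons were all above 0.1. For replicate 3 they were 0.108 to 0.183 in the SOX2 and β-catenin comparisons, where replicates 1 and 2 had at most 0.0764. For LEF1, replicate 3 had 0.0663 and 0.0237. Whether replicate numbers pair the samples cannot be told from these values. With a replicate block the 7 differences kept their values, 9, 5.67, -2.33, 7, 0.667, 4.33 and 3.67, with p from 0.25, the smallest possible, to 1 (exact permutation tests). With 3 against 3, neither fit could pass 0.05, so the block says nothing about their stability.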

Other observations

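Between the end of Skap2, a gene next to the cluster, and the Hoxa window lie 133 kb (mm10, chr6:52012550-52145589). In this interval β-catenin had 4.67 ± 0.577 peaks among the 20000 best in WT and 6.67 ± 0.577 in CdxKO (SD, n = 3 each), so CdxKO was higher here and lower within the Hoxa window. T/BraKO had 6.33 ± 1.53. SOX2 had 4 ± 1 peaks there in WT noCHIR and 6.67 ± 1.15 in WT CHIR, and LEF1 had 4 ± 2 in WT, 4.33 ± 2.08 in CdxKO and 2.67 ± 0.577 in T/BraKO. These values were not tested.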
